A study of Rattus norvegicus with 6 samples.

Results

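The Polycomb, histone deacetylase and sirtuin genes are 35 genes of complexes and enzymes that write, read or remove marks on histones or on other proteins. They were chosen by name: each row of the raw count table with 1 of the 35 listed symbols was taken. All 35 were found among the 29884 genes of the table, and all 35 were among the 15464 genes with enough reads to be tested. The set holds 4 core and 3 accessory genes of Polycomb repressive complex 2 (PRC2), 7 genes of Polycomb repressive complex 1 (PRC1), 3 histone demethylases, 11 classical histone deacetylases (HDACs) and 7 sirtuins.

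RNA was sequenced from rat sciatic nerve after chronic constriction injury (CCI), a model of neuropathic pain made by tying loose ligatures round the nerve. The conduit group comprised 3 libraries from wild type rats whose injured nerve received a PLLA-PCL-RVC conduit, a nerve conduit that is piezoelectric and bears the local anaesthetic ropivacaine, as the series describes it. The untreated group comprised 3 libraries from wild type rats with the same injury and no conduit. The question was how the conduit changed the transcriptome of the injured nerve. Both groups were therefore injured, and neither an uninjured nerve nor an injured nerve with a drug-free conduit was analysed here, so the conduit itself, its piezoelectric property and the drug cannot be told apart. The labels give no strain, age, sex or time after injury. They do not say that each library came from a separate animal, and p-values therefore speak only of library-to-library spread, part of which may be technical.

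Polycomb complexes keep genes silent: PRC2 methylates a histone H3 tail, and PRC1 reads that mark through its chromobox subunits and attaches ubiquitin to histone H2A. Classical HDACs take acetyl groups off histones and other proteins with the help of zinc, while sirtuins do so with NAD, and several of these enzymes act mainly on proteins outside the nucleus. In peripheral nerve, work in mice has tied PRC2 to the silencing of injury genes in Schwann cells, and class I deacetylases to myelination and to the Schwann cell response to injury.

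Promoter letters are shown first because the members' values are set beside them further on. RefSeq promoter windows of the GRCr8 assembly (250 bases before to 50 after a gene's start) were matched for 31 of the 35 members by symbol. The E2F-like letters TTTNNCGC, searched on both strands, occurred in 7 of those 31 windows (22.6%), against 7.98% of the 12103 tested genes with a window and 4.92% of all 33469 rat promoter windows. The 7 members were Ezh2, Suz12, Phf19, Mtf2, Kdm1a, Hdac8 and Sirt5. In each the log2 fold change between conduit and untreated nerves, given further on, was below 0, as in 56.94% of tested genes with the letters. The stretches of 30 bases around the matches follow, 5′ to 3′ on the gene's strand, with the matching letters (or their reverse complement) in capitals.
Ezh2 (chr4:77687156-77687185, minus strand): gggctgctgcgTTTGGCGCtcggtccggtc
Suz12 (chr10:65464759-65464788, plus strand): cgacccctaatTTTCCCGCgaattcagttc
Phf19 (chr3:38594030-38594059, minus strand): taattcGCGGGAAAacGCGAAAAAgatggc
Mtf2 (chr14:1828405-1828434, minus strand): accggtagtccGCGGGAAAccaaaatggcg
Kdm1a (chr5:154121726-154121755, minus strand): gcggaggtgctcggTTTCGCGCggaccgtg
Hdac8 (chrX:71632963-71632992, minus strand): tgagactcttaGCGTCAAAacttgaaacag
Sirt5 (chr17:21543140-21543169, minus strand): cccaccaatatTTTGCCGCgctcccggtct

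Phf19 was the only member whose window held 2 matches, and they lie next to each other. The matches in Ezh2 and Kdm1a lay just after the gene's start, centred 13 and 38 bases downstream, and those of the other 5 members lay before it. The 250 bases upstream of Phf19, the member with the lowest log2 fold change, are shown whole because both of its matches lie in them.
Phf19 (chr3:38593855-38594104, minus strand): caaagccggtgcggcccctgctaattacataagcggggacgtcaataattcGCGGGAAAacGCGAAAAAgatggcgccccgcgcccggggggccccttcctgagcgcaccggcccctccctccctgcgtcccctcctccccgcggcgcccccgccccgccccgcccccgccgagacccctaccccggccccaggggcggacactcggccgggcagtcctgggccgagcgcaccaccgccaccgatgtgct

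Both other letter patterns searched the same way occurred among members closer to their overall share. The cell cycle homology region TTTGAA occurred in 5 of 31 member windows (16.1%), those of Cbx7, Hdac8, Hdac9, Sirt7 and Suz12. Its share was 18.3% of all windows and 12.7% of the 14062 windows of tested genes, where a gene can have more than 1. The E-box CACGTG occurred in 3 member windows (9.68%), those of Cbx8, Hdac5 and Sirt1. Its share was 6.42% of all windows and 8.65% of those of tested genes. A match describes these letters in this window and shows neither binding nor a cause.

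All 6 libraries were deep, with 38401951 to 42225086 counts, and no member had fewer than 54 counts in any library. Levels are given as scaled FPKM, the deposited FPKM (fragments per kilobase of gene, per library total) divided by the library's TMM factor, so that they compare across genes of different length and across libraries. TMM factors were 0.852 to 0.904 in conduit nerves and 1.12 to 1.18 in untreated nerves. Relative to these, scaling by library totals alone moved the log2 fold changes of all tested genes by a median of -0.39, so a member's direction is read against the bulk of genes. The 5 batch labels, 3 in conduit and 2 in untreated nerves, never spanned both groups, so batch and treatment cannot be told apart. Schwann cell markers check the tissue: the 6 such genes reported here summed to 32224 to 41086 CPM (counts scaled to a common library total) in conduit nerves and 3736 to 5415 CPM in untreated nerves, led by Mbp and Prx.

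Member genes differed between the groups about as often as other genes did. By edgeR's quasi-likelihood test with Benjamini-Hochberg adjustment over all tested genes (called at an adjusted p under 0.05), 16 of the 35 changed (45.7%), against 50.2% of all tested genes. Of these, 9 rose in conduit nerves (25.7%, against 24.0% of all tested genes): Ezh1, Cbx7, Cbx8, Pcgf2, Kdm5b, Hdac4, Hdac11, Sirt2 and Sirt3. The other 7 fell (20%, against 26.2%): Ezh2, Phf19, Kdm1a, Hdac1, Hdac9, Hdac10 and Sirt7. With library totals in place of TMM the split was 5 higher and 17 lower.

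Changes of at least 2-fold were found for 9 members (25.7%, against 29.8% of all tested genes). The 4 that rose by that much were Cbx7, Kdm5b, Hdac11 and Sirt3 (11.4%, against 14.6%), and the 5 that fell were Ezh2, Phf19, Hdac9, Hdac10 and Sirt7 (14.3%, against 15.1%). The 2 groups did not overlap in scaled FPKM for 21 members (60%, against 61.7%). The median log2 fold change was -0.02 over the members and -0.04 over all tested genes, and the median size without sign was 0.41 over the members and 0.64 over all tested genes. Each log2 fold change given next is conduit minus untreated, with ± 1 SE.

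**Figure D1:**
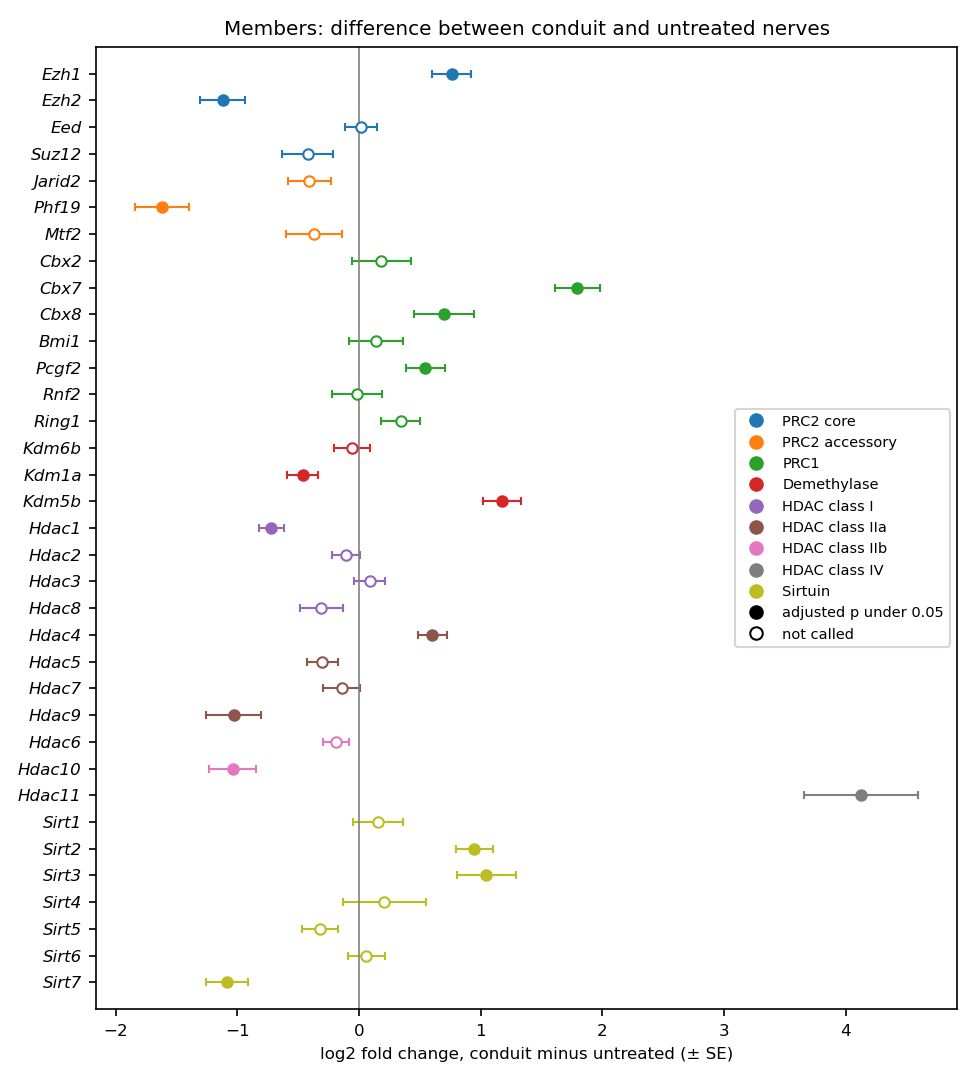
Log2 fold change (conduit minus untreated, x axis) of each of the 35 members, ordered by role, with bars of ± 1 SE from edgeR; filled points have an adjusted p under 0.05. Hdac11 lies far to the right at 4.12 and Phf19 farthest to the left at -1.61, and with library totals in place of TMM the points would sit about 0.39 further left, which puts Eed, Cbx2, Bmi1, Ring1, Hdac3, Sirt1, Sirt4 and Sirt6 below 0.

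The catalytic subunits of PRC2 moved in opposite directions. Ezh2, the methyltransferase of PRC2 that is typical of dividing cells, had 2.43, 2.47 and 1.70 scaled FPKM in conduit nerves, against 4.96, 4.89 and 4.48 in untreated nerves. Every conduit library lay below every untreated library, and the level fell 2.17-fold (log2 fold change -1.12 ± 0.18, adjusted p = 0.00212). Ezh1, the related methyltransferase that predominates in resting cells, had 12.7, 14.2 and 15.6 scaled FPKM in conduit nerves, against 8.66, 6.77 and 9.60 in untreated nerves. Here every conduit library lay above every untreated library (log2 fold change 0.76 ± 0.16, adjusted p = 0.00658), although the call was lost with library totals (log2 fold change 0.38, adjusted p = 0.0744) and in the 3 fits to FPKM.

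Ezh1 therefore made up 83.9%, 85.2% and 90.2% of the summed Ezh1 and Ezh2 FPKM in the conduit libraries, against 63.6%, 58.0% and 68.2% in the untreated libraries. This share does not depend on the scaling between libraries, and it averaged 86.4 ± 3.30% in conduit nerves and 63.3 ± 5.08% in untreated nerves (3 libraries each, ± SD). The groups did not overlap (exact permutation test, two-sided, p = 0.1, the smallest that 3 against 3 libraries allow, adjusted p = 0.14 over 7 shares). The sum of both genes was 16.4 ± 1.15 scaled FPKM in conduit nerves and 13.1 ± 1.28 scaled FPKM in untreated nerves.

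The noncatalytic core of PRC2 was not called. Eed, which binds the methyl mark and stimulates the enzyme, had 13.4, 12 and 11 scaled FPKM in conduit nerves, against 12.9, 12.1 and 10.9 in untreated nerves (log2 fold change 0.02, adjusted p = 0.922). The ranges of Eed overlapped almost fully, and its log2 fold change was -0.37 with library totals. Suz12, the scaffold of the complex, had 5.02, 5.29 and 5.39 scaled FPKM in conduit nerves, against 5.68, 9.53 and 5.82 in untreated nerves; untreated replicate 2 stood above both other untreated libraries (log2 fold change -0.42 ± 0.21, adjusted p = 0.133). Without that library the log2 fold change of Suz12 was -0.14. The level of Ezh2 relative to Eed in the same library was 0.181 ± 0.0252 in conduit nerves and 0.400 ± 0.0145 in untreated nerves, a ratio chosen after the values were seen.

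Among the accessory subunits that guide PRC2 to chromatin, Phf19 was called. Phf19, a Polycomb-like protein, had 0.445, 0.650 and 0.574 scaled FPKM in conduit nerves, against 1.67, 1.56 and 1.88 in untreated nerves. All conduit libraries lay below all untreated libraries, a 3.06-fold fall (log2 fold change -1.61 ± 0.22, adjusted p = 0.000993) at a low level. Mtf2, its close relative, had 2.96, 2.86 and 2.74 scaled FPKM in conduit nerves, against 2.84, 5.04 and 3.15 in untreated nerves, with untreated replicate 2 again highest and the groups overlapping (log2 fold change -0.37 ± 0.23, adjusted p = 0.22). Without that library the log2 fold change of Mtf2 was -0.07. Jarid2, which links PRC2 to its targets, had 1.87, 1.53 and 2.32 scaled FPKM in conduit nerves, against 2.51, 2.65 and 2.43 in untreated nerves. Its groups did not overlap, but it was not called (log2 fold change -0.41 ± 0.18, adjusted p = 0.0893).

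Of the 7 PRC1 genes 3 rose and none fell, against 24.0% and 26.2% of all tested genes. With library totals the only 1 of these calls that held was that of Cbx7. Cbx7, a chromobox protein that reads the PRC2 mark, had 5.88, 5.69 and 6.63 scaled FPKM in conduit nerves, against 2.06, 1.33 and 1.85 in untreated nerves. Conduit libraries were 3.47-fold higher on average with a wide gap between the groups (log2 fold change 1.80 ± 0.18, adjusted p = 0.000288). Cbx8, another chromobox reader, had 5.50, 4.70 and 4.34 scaled FPKM in conduit nerves, against 3.50, 2.21 and 3.23 in untreated nerves. Its groups did not overlap, yet the call was marginal (log2 fold change 0.70 ± 0.25, adjusted p = 0.049) and was lost in 11 of 16 alternatives, including without any 1 of conduit replicates 1 to 3 or of untreated replicates 2 and 3. Cbx2, the third reader of the set, had 0.835, 0.992 and 0.837 scaled FPKM in conduit nerves, against 0.873, 0.688 and 0.783 in untreated nerves, with overlapping groups (log2 fold change 0.18 ± 0.24, adjusted p = 0.556).

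Cbx7 made up 48.1%, 49.96% and 56.1% of the summed Cbx2, Cbx7 and Cbx8 FPKM in conduit libraries, against 32.0%, 31.5% and 31.5% in untreated libraries. The means were 51.4 ± 4.2% in conduit nerves and 31.7 ± 0.290% in untreated nerves (3 libraries each, ± SD, exact permutation p = 0.1, adjusted 0.14), and the untreated libraries were nearly identical to one another.

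Bmi1 and Pcgf2 encode alternative ring finger subunits of PRC1. Pcgf2 had 3.24, 4.29 and 3.81 scaled FPKM in conduit nerves, against 2.46, 2.53 and 2.77 in untreated nerves. Its groups did not overlap (log2 fold change 0.55 ± 0.16, adjusted p = 0.0231), but the call was lost in 7 alternatives, including without conduit replicate 2 or 3 or untreated replicate 1. Bmi1 had 19.9, 17.6 and 17.2 scaled FPKM in conduit nerves, against 14, 22.7 and 12.8 in untreated nerves; untreated replicate 2 was highest of all (log2 fold change 0.14 ± 0.22, adjusted p = 0.618). Without that library Bmi1 was called higher (log2 fold change 0.44, adjusted p = 0.0228). The share of Pcgf2 in the sum of both was 17.2 ± 2.89% in conduit nerves and 14.3 ± 3.94% in untreated nerves (3 libraries each, ± SD), and the groups overlapped (exact permutation p = 0.4, adjusted 0.467).

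The catalytic ubiquitin ligases of PRC1 were not called. Ring1 had 27.9, 24.4 and 20.4 scaled FPKM in conduit nerves, against 20.9, 16.5 and 19.9 in untreated nerves (log2 fold change 0.34 ± 0.16, adjusted p = 0.11). Rnf2, the other ligase, had 12.2, 12.1 and 13 scaled FPKM in conduit nerves, against 10.5, 16.9 and 10.3 in untreated nerves (log2 fold change -0.02 ± 0.20, adjusted p = 0.957). Both overlapped between the groups, and for Rnf2 the untreated libraries enclosed all conduit libraries. The share of Ring1 in the sum of both ligases was 65.9 ± 4.31% in conduit nerves and 60.6 ± 9.77% in untreated nerves (3 libraries each, ± SD, exact permutation p = 0.5), and the sign of this difference turned without untreated replicate 2.

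Untreated replicate 2 stood apart from its group in several members, as it did in other tested genes. It was at least 1.4-fold above both other untreated libraries in 5 members (Suz12, Mtf2, Bmi1, Rnf2 and Sirt1, 14.3% of the set), against 8.58% of all tested genes. It was as far below both in 4 members (Cbx8, Hdac11, Sirt3 and Sirt4), against 11.4% of all tested genes. Among the other libraries only conduit replicate 3 stood as far out in any member, with a low Ezh2. Over all tested genes, however, conduit replicate 3 stood as far above its group in 9.45% and untreated replicate 3 in 8.98%. The factor of 1.4 was chosen after the values were seen.

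**Figure D2:**
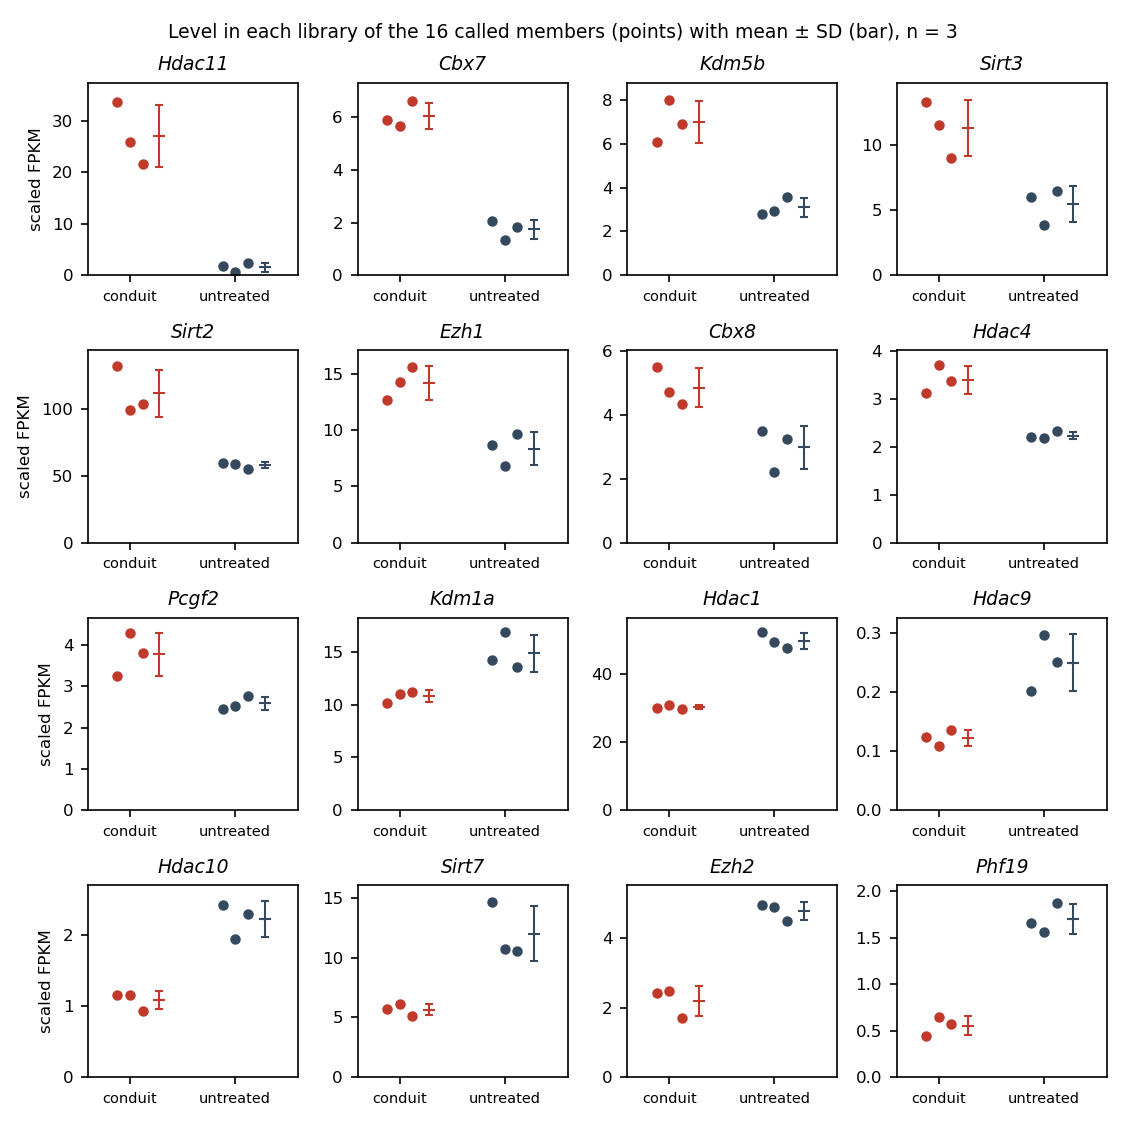
Scaled FPKM (y axis, from 0) of the 16 called members in each library, with the mean ± SD of the 3 libraries of each group beside the points, ordered by log2 fold change. No panel shows overlap between conduit and untreated libraries, and relative to its level the gap is widest for Hdac11, at 21.7 or more in conduit nerves and 2.29 or less in untreated nerves.

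The histone demethylases of the set remove different marks. Kdm5b, which removes an activating methyl mark from histone H3, had 6.06, 8.01 and 6.92 scaled FPKM in conduit nerves, against 2.78, 2.94 and 3.56 in untreated nerves. Conduit nerves were 2.26-fold higher without overlap (log2 fold change 1.18 ± 0.16, adjusted p = 0.000853). Kdm1a, a demethylase of corepressor complexes that also hold Hdac1 or Hdac2, had 10.2, 11 and 11.2 scaled FPKM in conduit nerves, against 14.2, 16.9 and 13.5 in untreated nerves. The fall of 1.38-fold was called (log2 fold change -0.46 ± 0.13, adjusted p = 0.0191), but not without any 1 of the conduit libraries. Kdm6b, which removes the PRC2 mark and thereby opposes Ezh1 and Ezh2, had 4.26, 4.82 and 5.91 scaled FPKM in conduit nerves, against 5.0, 5.65 and 4.93 in untreated nerves, and the groups overlapped (log2 fold change -0.06 ± 0.15, adjusted p = 0.778).

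The class I deacetylases are the nuclear core enzymes of corepressor complexes. Hdac1 had 29.9, 31.0 and 29.8 scaled FPKM in conduit nerves, against 52.2, 49.5 and 47.6 in untreated nerves. The conduit libraries lay close together and all below the untreated libraries, a fall of 1.65-fold (log2 fold change -0.72 ± 0.11, adjusted p = 0.00129). Hdac2, its closest relative and partner in the same complexes, had 37.2, 34.8 and 31.5 scaled FPKM in conduit nerves, against 37.8, 37.4 and 36.0 in untreated nerves, with overlapping groups (log2 fold change -0.11 ± 0.11, adjusted p = 0.46).

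Hdac1 made up 44.6%, 47.1% and 48.6% of the summed Hdac1 and Hdac2 FPKM in conduit libraries, against 58.0%, 56.9% and 56.9% in untreated libraries. Hdac1 was thus the more abundant of the pair in every untreated library and the less abundant in every conduit library. The mean share was 46.8 ± 2.02% in conduit nerves and 57.3 ± 0.604% in untreated nerves (3 libraries each, ± SD, exact permutation p = 0.1, adjusted 0.14).

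Neither of the other class I genes was called. Hdac3, the enzyme of the nuclear receptor corepressor complex, had 30.7, 27.4 and 25.9 scaled FPKM in conduit nerves, against 28.5, 23.7 and 26.8 in untreated nerves (log2 fold change 0.09 ± 0.13, adjusted p = 0.581), a positive value that turned to between -0.30 and -0.29 in all 4 fits scaled by library totals. In the unfiltered FPKM fit among these, Hdac3 was called lower (adjusted p = 0.0436). Hdac8, a class I enzyme found outside those complexes, had 1.42, 1.53 and 1.22 scaled FPKM in conduit nerves, against 1.79, 1.57 and 1.80 in untreated nerves. Its groups did not overlap, although untreated replicate 2 and conduit replicate 2 were nearly level (log2 fold change -0.31 ± 0.18, adjusted p = 0.181).

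Class IIa deacetylases shuttle between nucleus and cytoplasm and bind MEF2 transcription factors. Of the 4 genes of this class 1 rose and 1 fell, against 24.0% and 26.2% of all tested genes. Hdac4, a repressor known from muscle and neurons, had 3.12, 3.72 and 3.38 scaled FPKM in conduit nerves, against 2.21, 2.18 and 2.33 in untreated nerves. All conduit libraries were above all untreated libraries, by 1.52-fold on average (log2 fold change 0.60 ± 0.12, adjusted p = 0.0047), but the log2 fold change was 0.22 and not called with library totals (adjusted p = 0.156), nor in the 3 fits to FPKM. Hdac9 had 0.123, 0.108 and 0.136 scaled FPKM in conduit nerves, against 0.202, 0.298 and 0.252 in untreated nerves, the lowest levels of any member. It fell 2.04-fold without overlap (log2 fold change -1.03 ± 0.23, adjusted p = 0.00799), and in the FPKM fits with a filter it was not tested.

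Hdac5 was the most abundant of the class, at 15, 13.4 and 16.9 scaled FPKM in conduit nerves, against 18.1, 19.7 and 18.1 in untreated nerves, and was not called despite groups that did not overlap (log2 fold change -0.30 ± 0.13, adjusted p = 0.0836). Hdac7, known from endothelium and thymocytes, had 10.4, 11.2 and 12.5 scaled FPKM in conduit nerves, against 10.8, 11.9 and 14.9 in untreated nerves, with overlapping groups (log2 fold change -0.14 ± 0.15, adjusted p = 0.474). Hdac4 made up 10.9%, 13.1% and 10.2% of the summed class IIa FPKM in conduit libraries, against 7.04%, 6.42% and 6.55% in untreated libraries. The mean share was 11.4 ± 1.5% in conduit nerves and 6.67 ± 0.330% in untreated nerves (3 libraries each, ± SD, exact permutation p = 0.1, adjusted 0.14).

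Class IIb enzymes act mainly in the cytoplasm. Hdac10, a polyamine deacetylase, had 1.15, 1.16 and 0.933 scaled FPKM in conduit nerves, against 2.42, 1.95 and 2.29 in untreated nerves. It fell 2.05-fold and its groups did not overlap (log2 fold change -1.04 ± 0.19, adjusted p = 0.00368). Hdac6, the tubulin deacetylase, had 6.48, 6.72 and 6.73 scaled FPKM in conduit nerves, against 7.45, 7.45 and 7.81 in untreated nerves; the groups were close but did not overlap, and it was not called (log2 fold change -0.19 ± 0.10, adjusted p = 0.169).

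Hdac11, the single class IV deacetylase and an enzyme that removes fatty acyl groups from lysine, had the largest change of the 35 members. It had 33.5, 25.8 and 21.7 scaled FPKM in conduit nerves, against 1.74, 0.613 and 2.29 in untreated nerves. The lowest conduit library lay far above the highest untreated library, and the fitted difference was 17.4-fold (log2 fold change 4.12 ± 0.47, adjusted p = 0.000441). Within untreated nerves replicate 2 was the lowest, and without that library the log2 fold change was 3.74. Hdac11 supplied 16.9 ± 2.76% of the summed FPKM of the 11 Hdac genes in conduit nerves and 0.964 ± 0.527% in untreated nerves, while Hdac1 supplied 19.1 ± 1.19% in conduit nerves and 31.1 ± 1.22% in untreated nerves (3 libraries each, ± SD). The summed level of the 11 Hdac genes was 159 ± 9.38 scaled FPKM in conduit nerves and 160 ± 3.53 scaled FPKM in untreated nerves, so the sums lay within the spread of the libraries. These shares and sums over all Hdac genes were chosen after the values were seen.

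**Figure D3:**
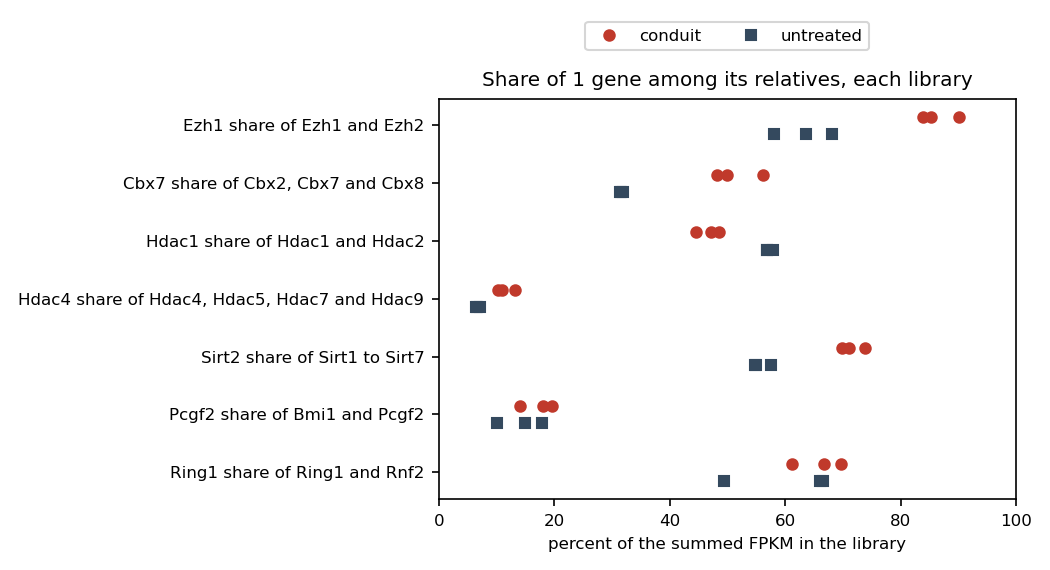
Percent of the summed FPKM (x axis) that the first-named gene of each row supplied among its relatives, in each conduit library (circles) and each untreated library (squares). The groups are separate in the upper 5 rows, for example for Ezh1 at 83.9% to 90.2% in conduit and 58.0% to 68.2% in untreated libraries, and overlap for Pcgf2 and Ring1; shares do not change with the scaling between libraries.

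The sirtuins were led by Sirt2, a largely cytoplasmic deacetylase of tubulin and other proteins that is abundant in myelinating cells. Sirt2 had 131, 99.0 and 103 scaled FPKM in conduit nerves, against 59.2, 58.6 and 55.0 in untreated nerves. It was the most abundant member of the whole set and rose 1.93-fold, with conduit replicate 1 highest and no overlap (log2 fold change 0.95 ± 0.15, adjusted p = 0.00186). Sirt2 supplied 73.8%, 69.8% and 71.0% of the summed sirtuin FPKM in conduit libraries, against 54.8%, 57.5% and 55.0% in untreated libraries. The mean share was 71.5 ± 2.07% in conduit nerves and 55.8 ± 1.49% in untreated nerves (3 libraries each, ± SD, exact permutation p = 0.1, adjusted 0.14). Over all 7 sirtuins the summed level was 155 ± 19.9 scaled FPKM in conduit nerves and 103 ± 4.16 scaled FPKM in untreated nerves.

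Of the 3 mitochondrial sirtuins, 1 rose, against 24.0% of all tested genes. Sirt3, the main deacetylase of the mitochondrial matrix, had 13.3, 11.5 and 9.0 scaled FPKM in conduit nerves, against 5.97, 3.87 and 6.5 in untreated nerves. It rose 2.07-fold without overlap (log2 fold change 1.05 ± 0.24, adjusted p = 0.0096), and the call was lost in the unfiltered FPKM fit alone. Sirt4 had 1.01, 1.43 and 1.14 scaled FPKM in conduit nerves, against 1.12, 0.717 and 1.26 in untreated nerves, with a large spread and overlapping groups (log2 fold change 0.21 ± 0.34, adjusted p = 0.635). Sirt5, which removes succinyl and malonyl groups, had 9.93, 9.39 and 11.3 scaled FPKM in conduit nerves, against 14.3, 11.1 and 12.7 in untreated nerves. Conduit replicate 3 just exceeded untreated replicate 2, and Sirt5 was not called (log2 fold change -0.32 ± 0.15, adjusted p = 0.111) except without untreated replicate 2 (log2 fold change -0.41, adjusted p = 0.0488) and in fits scaled by library totals.

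The nuclear sirtuins included 1 that fell, where 26.2% of all tested genes fell. Sirt7, a nucleolar sirtuin tied to ribosomal gene transcription, had 5.75, 6.08 and 5.16 scaled FPKM in conduit nerves, against 14.7, 10.7 and 10.6 in untreated nerves. The level fell 2.12-fold, and untreated replicate 1 was the highest library (log2 fold change -1.08 ± 0.17, adjusted p = 0.00197). Sirt1, a deacetylase of histones and transcription factors, had 6.48, 6.72 and 5.97 scaled FPKM in conduit nerves, against 4.83, 7.65 and 4.71 in untreated nerves. Untreated replicate 2 was above every conduit library and the other untreated libraries below (log2 fold change 0.16 ± 0.20, adjusted p = 0.551); without replicate 2 Sirt1 was called higher (log2 fold change 0.42, adjusted p = 0.0256). Sirt6, which acts on histone H3 at telomeres and damaged DNA, had 10.2, 7.74 and 9.65 scaled FPKM in conduit nerves, against 7.88, 9.21 and 9.29 in untreated nerves, with overlapping groups (log2 fold change 0.06 ± 0.15, adjusted p = 0.757).

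Levels ranged widely within the set. As means over all 6 libraries, the median member stood at 7.11 scaled FPKM, against 5.03 for the median tested gene, and members ran from 0.187 for Hdac9 to 84.4 for Sirt2. Next to Sirt2, the most abundant members in both groups were Hdac1, Hdac2, Hdac3 and Ring1, together with Hdac11 in conduit nerves alone. In conduit nerves Hdac11 averaged 27.0 ± 6.04 scaled FPKM, within the spread of Hdac3 at 28.0 ± 2.44 scaled FPKM (3 libraries each, ± SD). In untreated nerves Hdac11 averaged 1.55 ± 0.856 scaled FPKM, close to Cbx7 at 1.75 ± 0.373 scaled FPKM and Hdac8 at 1.72 ± 0.129 scaled FPKM.

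Calls differed in how firmly they held. Of the 16 called members, 10 kept call and direction in every alternative in which they were tested, namely Cbx7, Kdm5b, Hdac11 and Sirt2 among those that rose and Ezh2, Phf19, Hdac1, Hdac9, Hdac10 and Sirt7 among those that fell. The calls of Ezh1, Cbx8, Pcgf2, Kdm1a, Hdac4 and Sirt3 were lost in at least 1 alternative, and none of the 16 turned direction. Of the 19 members not called, 14 were called in at least 1 alternative, mostly in the fits scaled by library totals.

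**Figure D4:**
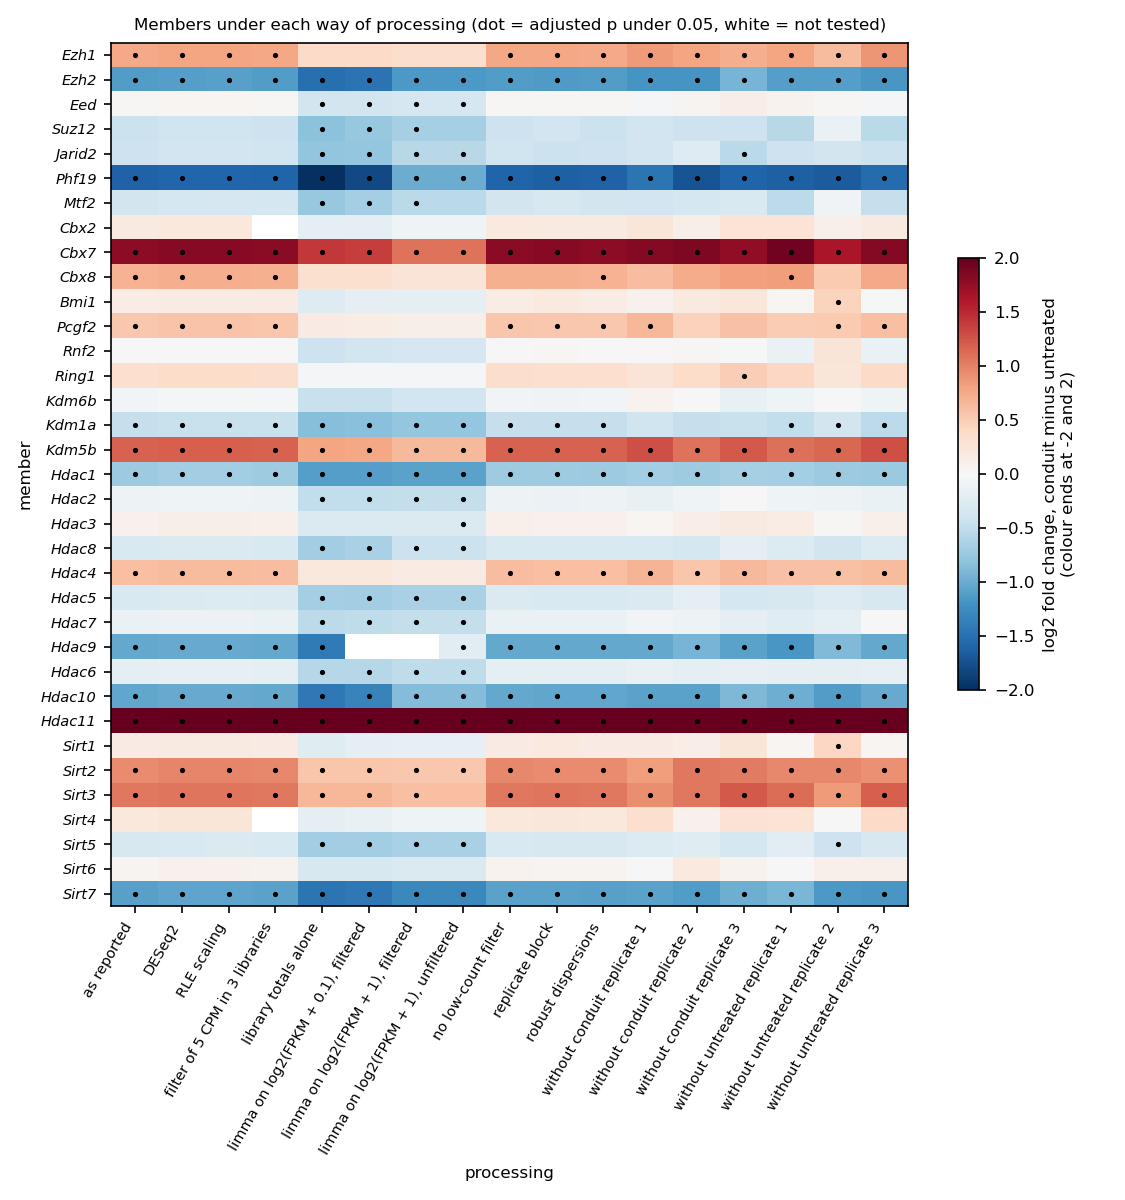
Log2 fold change (conduit minus untreated, colour, capped at -2 and 2) of each of the 35 members (rows) as reported and under each of 16 other ways of processing (columns); a dot marks an adjusted p under 0.05 and white a member not tested there. Cbx7, Kdm5b, Hdac11 and Sirt2 are red with a dot in every column, while the 4 columns scaled by library totals are shifted toward blue and put Eed, Cbx2, Bmi1, Ring1, Hdac3, Sirt1, Sirt4 and Sirt6, of which none was called as reported, below 0.

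Cell type markers also differed between the groups. All 10 genes of the dividing-cell list fell, and their sum was 73.8 to 88.2 CPM in conduit nerves and 403 to 551 CPM in untreated nerves. That list is led by Pcna and Mki67, and no gene of it was at 0 throughout a group. All 6 Schwann cell genes rose, with the sums given above. All 8 macrophage genes fell, led by Lyz2 and Mrc1, and summed to 346 to 566 CPM in conduit nerves and 2364 to 2985 CPM in untreated nerves. Of 5 T cell genes in the table, 4 fell, and Cd3g was not called (log2 fold change -0.88 ± 0.42, adjusted p = 0.121). Cd3e fell by less (log2 fold change -2.10 ± 0.34) than Cd8a (log2 fold change -6.63 ± 0.57). The sum of the T cell list was 37.8 to 72.6 CPM in conduit nerves and 177 to 265 CPM in untreated nerves. It rests mainly on Cd4 and Cd8a and says little of the Cd3 genes. The part of these cell types in the changes of Ezh2, Phf19, Hdac1, Hdac11, Sirt2 and the other members was not tested. In bulk tissue, fewer cells of a type and less RNA per cell cannot be told apart.

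Marker lists of other cells gave sums that overlapped between the groups or rested on few libraries. The 6 endothelial genes, led by Cldn5 and Pecam1, summed to 705 to 834 CPM in conduit nerves and 707 to 978 CPM in untreated nerves, although Cldn5 rose (log2 fold change 1.08 ± 0.28, adjusted p = 0.0165) and Pecam1 fell (log2 fold change -0.93 ± 0.22, adjusted p = 0.0104). The 5 fibroblast genes, led by Col1a1 and Col1a2, summed to 12396 to 26138 CPM in conduit nerves and 7036 to 14074 CPM in untreated nerves. Col1a1 (log2 fold change 1.44 ± 0.42, adjusted p = 0.0236) and Col1a2 (1.25 ± 0.43, adjusted p = 0.0427) rose, although their groups overlapped. Pdgfra of the same list fell (log2 fold change -0.95 ± 0.31, adjusted p = 0.035), and Dcn and Lum were not called. Skeletal muscle genes, led by Acta1 and Ckm, summed to 16 to 17.3 CPM in conduit nerves, and to 10916, 78.0 and 9.09 CPM in untreated replicates 1, 2 and 3. The sum stood out in 1 untreated library, but Myh7 of the same list, a slow muscle myosin, rose (log2 fold change 5.48 ± 0.47, adjusted p = 0.000145), at 1.89 ± 0.385 scaled FPKM in conduit nerves and 0.0420 ± 0.0239 in untreated nerves as mean ± SD. The 5 adipocyte genes, led by Fabp4 and Adipoq, summed to 296 to 1419 CPM in conduit nerves and 333 to 734 CPM in untreated nerves. Lep (log2 fold change 4.21 ± 0.61, adjusted p = 0.00128) and Cidec (2.76 ± 0.92, adjusted p = 0.0394) rose, and the others were not called. Genes of neurons, led by Tubb3 and Prph, summed to 36.1 to 50.1 CPM in conduit nerves and 26.3 to 45.0 CPM in untreated nerves. Tubb3 and Prph were not called. Snap25 rose (log2 fold change 2.11 ± 0.64, adjusted p = 0.0275) at a low level, 0.460 ± 0.311 scaled FPKM in conduit nerves and 0.105 ± 0.0544 in untreated nerves (mean ± SD). Without untreated replicate 1, the library with muscle transcripts, 8 members were called higher and 7 lower; Pcgf2 was the call that was lost.

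Promoter letters can be read against these results. Of the 7 members with the E2F-like letters, 3 fell (Ezh2, Phf19 and Kdm1a), 0 rose and the rest were not called. All 7 had log2 fold changes below 0 under every scaling and left-out library tried. Library totals by themselves moved all tested genes by a median of -0.39. For Suz12 and Mtf2 the size rested on untreated replicate 2, without which the log2 fold changes were -0.14 and -0.07. Of the 24 members whose window lacks the letters, 4 fell and 7 rose, and 11 (45.83%) had values below 0. Values below 0 were found in 56.94% of tested genes with the letters and 51.85% of those without. Among 966 tested genes with the letters 31.5% fell and 20.7% rose (median log2 fold change -0.13), against 26.0% and 24.3% of 11137 tested genes without them (median -0.04). No test was made of these counts.

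Genes that overlap a member could share reads with it, since strandedness is not stated in the labels. Ezh2 overlaps Cul1 on the opposite strand in GRCr8, and Cul1, a cullin ubiquitin ligase scaffold, averaged 4553 counts in conduit nerves, against 5073 in untreated nerves (log2 fold change 0.19, not called). Sirt2 overlaps LOC103689966 on the same strand, which averaged 443 counts in conduit nerves, against 446 in untreated nerves, and was not called (log2 fold change 0.34). The other overlapping genes averaged at most 8.67 counts in either group or had no row in the table.

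Other subunits of the same complexes were described from lists, with counts and medians set beside the median of -0.04 over all tested genes. Over all tested genes 24.0% rose and 26.2% fell, and shares of short lists are read against these. With library totals in place of TMM every list median was below 0, from -4.84 to -0.15. Of 6 other PRC2 genes tested, 1 rose and none fell, with a median log2 fold change of 0.13. The riser was Phf1, a Polycomb-like protein related to Phf19 and Mtf2, at 11.6 ± 0.687 scaled FPKM in conduit nerves and 6.36 ± 1.29 in untreated nerves as mean ± SD (log2 fold change 0.87 ± 0.17, adjusted p = 0.00485). Of 17 other PRC1 genes, 4 rose and 1 fell (median 0.24). They were led by Auts2 (log2 fold change 1.69 ± 0.16, adjusted p = 0.000207), Cbx6 (log2 fold change 1.22 ± 0.17, adjusted p = 0.00111) and Phc3 (log2 fold change 0.84 ± 0.13, adjusted p = 0.00152), a subunit of a noncanonical PRC1, a chromobox protein and a Polyhomeotic protein. Bcorl1 also rose and Kdm2b fell. In the unfiltered FPKM fit the calls of Phf1 (adjusted p = 0.0527) and Phc3 (adjusted p = 0.053) were lost. In the H2A deubiquitination list of 5 genes, Usp16, which takes ubiquitin off histone H2A, fell (log2 fold change -0.98 ± 0.16, adjusted p = 0.00209) and Asxl3 rose (log2 fold change 0.82 ± 0.26, adjusted p = 0.0317). The call of Asxl3 was lost in 6 alternatives, including without conduit replicate 1 or 2 or untreated replicate 1 or 3.

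Enzymes of other histone marks were counted in the same way. Of 15 other histone demethylases, 6 rose (40%, against 24.0% of all tested genes) and none fell (against 26.2%), and the median of 0.21 was -0.19 with library totals. The 3 with the smallest adjusted p were Kdm4b (log2 fold change 1.68 ± 0.18, adjusted p = 0.000359), Phf8 (log2 fold change 1.15 ± 0.14, adjusted p = 0.00067) and Kdm4a (log2 fold change 0.95 ± 0.14, adjusted p = 0.00151). The remaining risers were Kdm3b, Kdm4d and Phf2. Of 10 histone acetyltransferases, which oppose the deacetylases, 3 rose and 2 fell (median 0.22). Kat2b and Kat6b rose (log2 fold change 1.14 ± 0.12, adjusted p = 0.000304 for Kat2b and log2 fold change 1.34 ± 0.19, adjusted p = 0.00111 for Kat6b), while Hat1, which acetylates newly made histone H4, fell (log2 fold change -0.86 ± 0.15, adjusted p = 0.00254).

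Partners of the deacetylases were counted by class. Of 23 genes of the corepressor complexes that hold Hdac1, Hdac2 or Hdac3, 1 rose (4.35%, against 24.0% of all tested genes) and 5 fell (21.7%, against 26.2%), with a median of -0.14. Sap30, a Sin3 complex subunit, had 1.39, 1.87 and 1.32 scaled FPKM in conduit nerves, against 7.46, 5.75 and 5.16 in untreated nerves, without overlap (log2 fold change -2.0 ± 0.27, adjusted p = 0.000895). Gatad2a and Mta2, of the nucleosome remodelling and deacetylase complex, fell by less (log2 fold change -0.53 ± 0.12, adjusted p = 0.00814 for Gatad2a and log2 fold change -0.50 ± 0.11, adjusted p = 0.00958 for Mta2). Both of these calls were lost without conduit replicate 2 (adjusted p = 0.0515 and 0.0545), and that of Mta2 also without conduit replicate 1 (adjusted p = 0.0533). Of 21 class IIa partners tested, 3 rose and 6 fell (median -0.14). Prkd1, a kinase that sends class IIa enzymes out of the nucleus, had 8.10, 7.03 and 6.86 scaled FPKM in conduit nerves, against 1.11, 1.19 and 1.49 in untreated nerves, a rise without overlap (log2 fold change 2.54 ± 0.16, adjusted p = 7.82e-05). Camk2b, another such kinase, rose (log2 fold change 1.73 ± 0.17, adjusted p = 0.000267), and Mef2c, a transcription factor that class IIa enzymes bind, fell (log2 fold change -0.86 ± 0.13, adjusted p = 0.00145).

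Genes of NAD supply and use, on which sirtuins depend, had 1 riser and 4 that fell among 12 (median -0.29). Genes of supply went both ways. Nampt, a gene of NAD supply, fell (log2 fold change -1.29 ± 0.31, adjusted p = 0.0105). It averaged 16.9 ± 2.08 scaled FPKM in conduit nerves and 41.4 ± 19.1 in untreated nerves (mean ± SD). Parp1, a gene of NAD use, also fell (log2 fold change -0.83 ± 0.14, adjusted p = 0.00238). Nmnat2, an axonal enzyme that makes NAD, had 5.99, 4.2 and 6.32 scaled FPKM in conduit nerves, against 0.261, 0.554 and 0.483 in untreated nerves. Every conduit library lay well above every untreated library (log2 fold change 3.66 ± 0.37, adjusted p = 0.000269). Bst1 had 0.713, 1.37 and 0.876 scaled FPKM in conduit nerves, against 11.8, 10.2 and 6.70 in untreated nerves and Cd38, like Bst1 an enzyme that breaks NAD down, had 1.98, 4.01 and 3.27 scaled FPKM in conduit nerves, against 10.7, 13.5 and 14.5 in untreated nerves. Both fell without overlap (log2 fold change -3.28 ± 0.33, adjusted p = 0.000275 for Bst1 and log2 fold change -2.06 ± 0.27, adjusted p = 0.000748 for Cd38). Cd38 and Bst1 are also known from immune cells, whose marker sums fell as given above. The part of immune cells in the values of Cd38 and Bst1 was not tested.

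Loci reported in mouse Schwann cells as silenced by Polycomb formed a list of 9 genes. It was chosen with earlier results of these data known, so its counts are description alone. All 9 were called (against 50.2% of all tested genes), with 8 lower (against 26.2%) and 1 higher (against 24.0%). Their median log2 fold change was -4.47. Shh, a secreted signal, had 18.1, 21.9 and 22.1 scaled FPKM in conduit nerves, against 108, 170 and 104 in untreated nerves. Gdnf, a growth factor for neurons, had 0.0626, 0.0396 and 0.0780 scaled FPKM in conduit nerves, against 18.7, 24.5 and 7.82 in untreated nerves. Its counts in conduit nerves were few, at 13, 8 and 17. Runx2, a transcription factor, had 0.137, 0.115 and 0.181 scaled FPKM in conduit nerves, against 3.48, 4.33 and 2.50 in untreated nerves. For each of the 3 the conduit libraries lay far below the untreated libraries (log2 fold change -2.62 ± 0.23, adjusted p = 0.000148 for Shh, log2 fold change -8.13 ± 0.56, adjusted p = 9.14e-05 for Gdnf and log2 fold change -4.57 ± 0.28, adjusted p = 7.82e-05 for Runx2). The single riser was Olig1 (log2 fold change 1.77 ± 0.56, adjusted p = 0.0321), at 0.477 ± 0.296 scaled FPKM in conduit nerves and 0.139 ± 0.0461 in untreated nerves as mean ± SD. It had 24, 23 and 67 counts in conduit libraries and 16, 18 and 8 in untreated libraries. Levels of RNA do not measure the histone mark, and the part of Schwann cell number and state in these values was not tested.

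**Figure D5:**
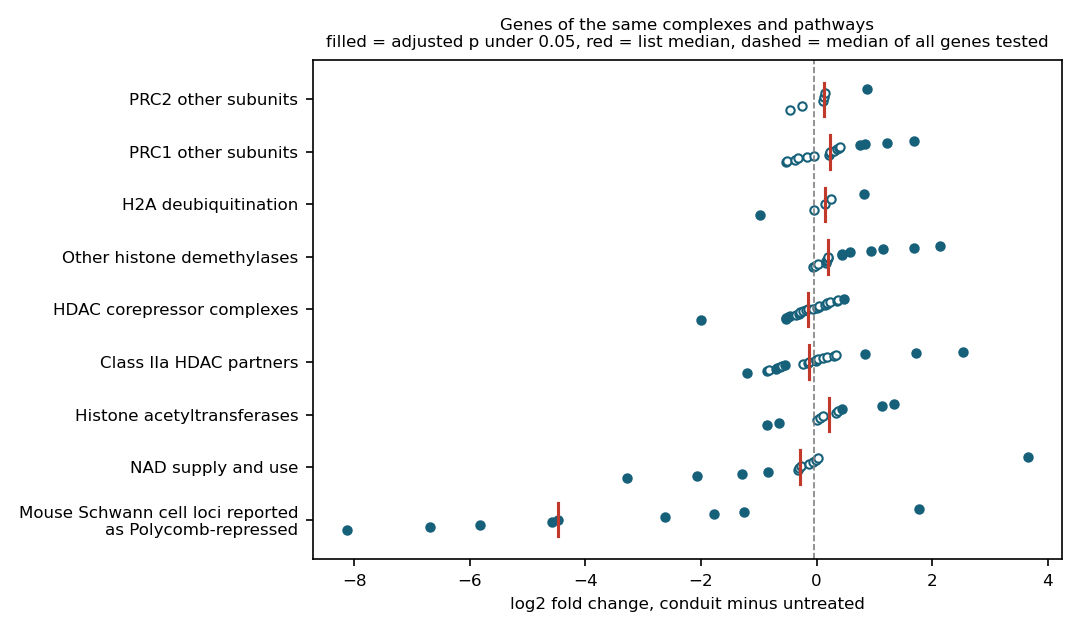
Log2 fold change (conduit minus untreated, x axis) of each tested gene in 9 lists of related genes, filled where the adjusted p is under 0.05, with the list median in red and the median of all tested genes (-0.04) dashed. The loci reported as Polycomb-repressed in mouse Schwann cells lie farthest left with a median of -4.47, and the medians of the other lists lie between -0.29 and 0.24 and would move about 0.39 to the left with library totals.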

How the data were processed

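The authors deposited raw counts per gene and FPKM values for each library. The submitters' processing notes name the tools HISAT2, HTSeq, fastp and DESeq2 and the build mRatBN7.2; versions and settings are not given in the sources used here. Per the labels, TRIzol was used for extraction, and mRNA was enriched before library preparation (VAHTS Universal V10 kit). The deposited FPKM equalled the count over 1 gene length and the library total in 20504 of 20504 genes (tolerance 0.001), and 7834 genes had no count.

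Counts were tested with edgeR 4.0.16 in R 4.3.3 (TMM, filterByExpr with a minimum count of 10, quasi-likelihood F test, group alone). The SE was taken as the size of the log2 fold change over the square root of F. Log2 fold changes, but not the SE, were checked on simulated data. CPM is the count relative to the TMM-scaled total. Shares of summed FPKM were compared by exact permutation of the 6 libraries (20 arrangements). Promoter windows came from RefSeq (GRCr8), a later assembly than the authors' build, and Mylpf was matched as Myl11.

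The other settings tried were library totals, RLE scaling, DESeq2 1.42.0, other filters, robust dispersions, the replicate number as a block, limma 3.58.1 on log2(FPKM + 1) or log2(FPKM + 0.1), and each library left out. All members are named, with the 3 genes of smallest adjusted p of each pathway list, the 2 most abundant of each marker list, and other called genes where a list's count is small. 1 gene that this rule names is not reported here. Members and lists were chosen with earlier results of these data known.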

Additional observations from a re-analysis of the deposited data

How the results depend on the processing

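Scaling decided the split of calls. With library totals alone, 5 members were higher and 17 lower, and over all genes 2291 were higher and 6554 lower. Limma on log2(FPKM + 0.1) gave 5 members higher, 16 lower and 2034 genes higher, limma on log2(FPKM + 1) gave 5, 16 and 2044, and the same fit without a filter gave 4 and 16 members and 2254 genes higher and 6263 lower. Those values carry library totals, and under them the log2 fold changes of single genes were lower than with TMM by a median of 0.34 to 0.39. Eed, at 0.02 with TMM, turned to -0.37 (library totals and log2(FPKM + 0.1)) and -0.34 (both fits with log2(FPKM + 1)), and Hdac3 to between -0.30 and -0.29 in all 4 (called in the unfiltered fit). DESeq2, RLE scaling, the 5 CPM filter and robust dispersions each gave 9 members higher and 7 lower, and no filter gave 8 and 7.

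Leaving out 1 library at a time gave 7 to 10 members higher and 6 to 8 lower. The Ring1 share differed by -0.42 to 8.18 percentage points between conduit and untreated nerves under these omissions, against 5.22 with all libraries. The Pcgf2 share differed by 0.866 (without untreated replicate 2) to 4.76 points, against 2.99. The 6 shares other than Ring1 kept their direction, and counts in place of FPKM kept all 7.

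Same-numbered libraries deviated together only weakly or not at all (correlations of 0.144, -0.0278 and 0.0636). Weak correlations cannot exclude a pairing, and the labels do not state one. With the replicate block 8 members were higher and 7 lower (Cbx8 lost its call), and over all genes 3622 were higher and 3892 lower.

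With 3 libraries a group no share can pass 0.05. The lowest count of a member was 54, and 2 low members, Cbx2 and Sirt4, were not tested with the 5 CPM filter.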
